A study of Mus musculus with 9 samples.

Results

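The genes described here encode the subunits of the constitutive 26S proteasome, 31 in number, together with Gm3375, a processed copy of the subunit gene Psmb5. Their 32 rows were taken by symbol from a table of 55401 mouse gene identifiers, and Psmb5 and Gm3375 were also added together. RNA had been sequenced from mammary tumors of female C57BL/6 mice that all carried a human MUC1 transgene and MMTV-PyMT, the polyoma middle T oncogene under a mouse mammary tumor virus promoter. Tumors of Hspa1a/Hspa1b-/- mice (KO), 120 to 125 days old, gave 5 libraries, and tumors of Hspa1a/Hspa1b+/+ mice (WT), 122 to 132 days old, gave 4 libraries. The deleted genes encode HSP72, the stress-inducible HSP70 chaperone, and the study asked which tumor processes depend on it. Tumors had been dissociated with collagenase and trypsin before RNA extraction, so the libraries hold tumor cells together with the stromal and immune cells that survived this step. The labels number the samples but not the animals. Ages differ between most samples of a genotype, but KO 3 and KO 5 shared 120 days, and WT 3 and WT 4 shared 124 days. The spread behind each p-value is that between samples, and part of it may be technical.

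The proteasome is the protease that degrades proteins tagged with ubiquitin. Its 20S core is a barrel of alpha rings, which gate the entrance, and beta rings, which hold the active sites, and the 19S cap recognises and unfolds substrates with a ring of ATPases and a set of non-ATPase subunits. HSP70 chaperones hand misfolded proteins to this machine through the ubiquitin ligase CHIP, and the transcription factor NRF1 raises the subunit genes together when proteasome activity is short. A processed copy, or retrocopy, is a DNA copy of a spliced messenger RNA that was inserted elsewhere in the genome without introns.

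The depth was 16263265 to 19136317 fragments in KO libraries and 11500920 to 17976998 in WT libraries. Gene counts came to 4973540 to 6221181 in KO and 4410399 to 5709054 in WT. Fragments with no annotated feature took 39.6% to 50.4% of KO libraries and 34.0% to 43.8% of WT libraries, with the highest share in KO 3 and the lowest in WT 4. Levels are given as CPM, the count scaled to the library's total over the tested genes with TMM factors. The deleted genes checked the labels: Hspa1b fell by 7.89 on the log2 scale in KO (edgeR quasi-likelihood adjusted p = 5.31e-05). Over all 14665 genes tested, 13 were called at an adjusted p under 0.05, which is 0.0886%, or 0.0546% higher and 0.0341% lower in KO. The median log2 fold change of all genes was -7.8e-05, and 50% of them had a negative value. All 8 epithelial markers were present, with Epcam at 628.2 to 984.2 CPM in KO and 775.2 to 1471 CPM in WT.

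The results turn on Psmb5 and Gm3375, so their sequences are shown first. Psmb5 (ENSMUSG00000022193.7) lies on the minus strand at chr14:54614119-54618022 of GRCm38 and encodes the beta subunit with the chymotrypsin-like active site, the main target of the drug bortezomib. Gm3375 (ENSMUSG00000107470.1) lies on the plus strand at chr7:3181093-3181888, has 1 exon of 796 bases and is annotated as a processed pseudogene. Aligned to the annotated Psmb5 transcript, which has 899 bases, Gm3375 covered the coding region and matched it at 787 of 795 bases, or 99.0%. The 8 substitutions all fell in the coding region, and the copy also had 1 extra base after coding base 262. Counted from the first coding base, with the Psmb5 base first, they were G6A, G106A, C297T, C306T, T387A, C417T, T465C and C660A. Read in the frame of Psmb5, 5 were synonymous, G106A and T387A changed the amino acid and C660A gave a stop codon. The extra base shifts the copy's own frame from there on, and the later substitutions were not read in that frame.

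The windows below show 4 of the places where a read can tell the copy from its parent. Outside the 8 substitutions and the extra base, the 795 aligned bases carry the same letters. Capitals mark the differing or extra base. Psmb5 is numbered by coding base and Gm3375 also by its GRCm38 position on the plus strand, from the GENCODE transcripts.
Psmb5 coding bases 96 to 116: ggggagtcctGgtgatgggct
Gm3375 at chr7:3181188-3181208: ggggagtcctAgtgatgggct
Psmb5 coding bases 252 to 272: tattgcttcccagacggtgaa
Gm3375 at chr7:3181344-3181365: tattgcttcccAagacggtgaa
Psmb5 coding bases 287 to 316: tcaacccgtaCcttctgggCaccatggctg
Gm3375 at chr7:3181380-3181409: tcaacccgtaTcttctgggTaccatggctg
Psmb5 coding bases 650 to 670: gagccatctaCcaagccacct
Gm3375 at chr7:3181743-3181763: gagccatctaAcaagccacct
The first pair holds G106A, the second the extra base, the third C297T and C306T, and the fourth C660A, a stop codon in the frame of Psmb5.

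Between these sites the sequences offered long identical runs. The libraries were read for 50 cycles from each end, so every window of 50 bases along the Psmb5 transcript was compared with all annotated transcripts of other genes. Of 850 windows, 420 occurred unchanged in Gm3375, in 5 stretches of which the longest had 194 bases. Seen from the copy, 420 of its 747 windows, or 56.2%, occurred in Psmb5. The table follows the layout of STAR gene counting, in which a fragment that fits several places equally well is set aside as multimapped, and 5.50% to 9.53% of the fragments of a library were. A pair counts if either of its reads reaches a difference, so a smaller share of fragments than of windows is affected. Copies outside the annotation were not searched.

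**Figure D1:**
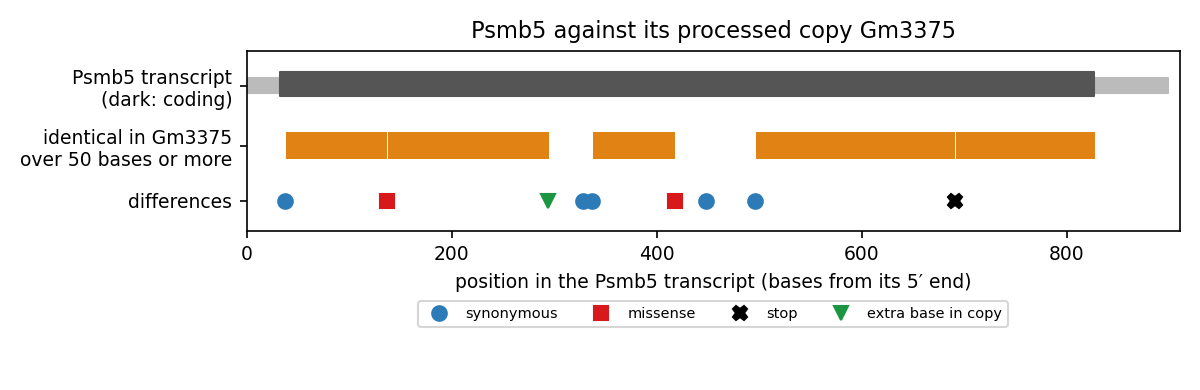
Psmb5 transcript drawn from its 5′ end in bases, with the coding region dark, above the stretches of at least 50 bases that are identical in Gm3375 and the places where the 2 sequences differ. The identical stretches are broken only by the 8 substitutions and the extra base, and the longest, of 194 bases, ends just before the substitution C660A.

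By edgeR with a genotype term alone, Gm3375 was the only one of the 32 genes past the threshold. Its counts were 26, 31, 39, 35 and 35 in the KO libraries, against 0 in each of the 4 WT libraries. Scaled, these were 5.12, 5.05, 6.403, 6.32 and 5.98 CPM in KO, a mean of 5.78 ± 0.65 CPM (SD, n = 5), and 0 CPM in WT (n = 4). Every KO library held the copy at a similar level and no WT library held a single counted fragment of it. A count of 0 allows up to 0.153 CPM over the WT libraries together, taking 3 counts as the floor, so Gm3375 was at least 37.7-fold higher in KO, where the group stood at 5.79 CPM. The fitted log2 fold change was 7.96 ± 0.54 (SE; edgeR quasi-likelihood adjusted p = 0.000805), which depends on the prior count and is not a bound. An exact two-sided permutation test of the CPM values gave p = 0.0159, the smallest that 126 assignments of 5 and 4 libraries allow. The background was 0.0546% of all genes called higher in KO and 1.44% with every KO library above every WT library.

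Psmb5 itself had lower counts in KO without passing the threshold. Its counts were 35, 33, 37, 30 and 46 in KO, against 54, 72, 73 and 43 in WT. The levels were 6.89, 5.38, 6.08, 5.42 and 7.87 CPM in KO (6.33 ± 1.06, SD, n = 5) and 12.6, 15.0, 12.1 and 9.62 CPM in WT (12.3 ± 2.22, SD, n = 4). The groups did not overlap: KO 5, the highest KO library, stood below WT 4, the lowest WT library. The log2 fold change was -0.96 ± 0.20 (SE; 95% interval -1.40 to -0.53), with an unadjusted p of 0.000453 and an adjusted p of 0.222 from edgeR's quasi-likelihood test. With DESeq2 the log2 fold change was -0.97 and the adjusted p was 0.0103, so the call depends on the tool. An exact two-sided permutation test of the CPM values gave p = 0.0159.

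Added together, the parent and the copy were at nearly the same level in both genotypes. The summed counts were 61, 64, 76, 65 and 81 in KO, against 54, 72, 73 and 43 in WT. As levels these were 12.0, 10.4, 12.5, 11.7 and 13.8 CPM in KO (12.1 ± 1.24, SD, n = 5) and 12.6, 15.0, 12.1 and 9.62 CPM in WT (12.3 ± 2.22, SD, n = 4). The KO values lay inside the range of the WT values. With the 2 rows replaced by their sum, the log2 fold change was -0.03 ± 0.17 (SE; edgeR quasi-likelihood adjusted p = 0.976), with a 95% interval of -0.40 to 0.35. Without KO 2 it was 0.02 and without WT 2 it was 0.08. The exact two-sided permutation p for the sum was 0.794.

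**Figure D2:**
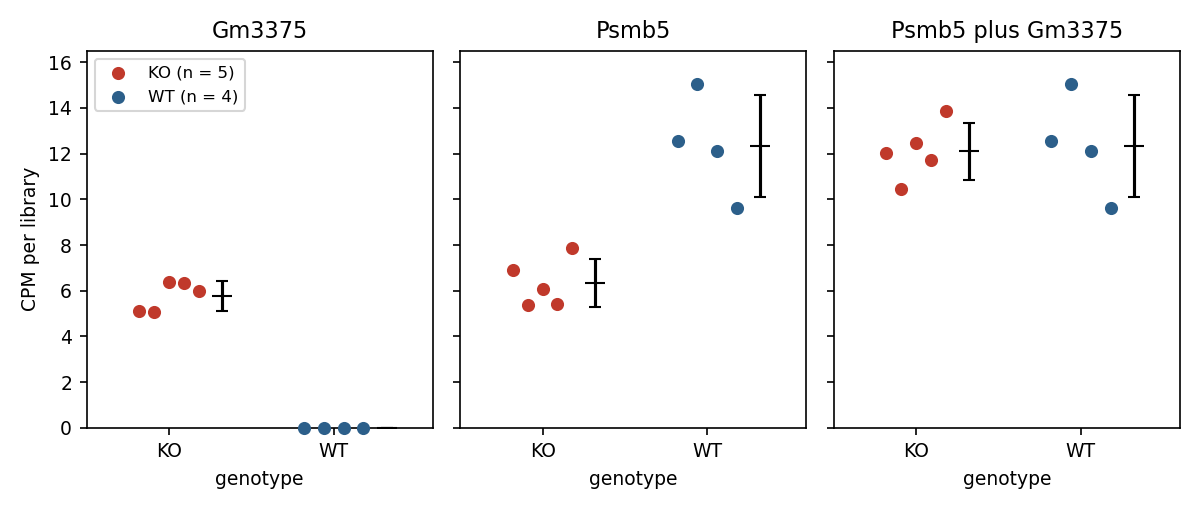
CPM in each library (points) of Gm3375, Psmb5 and their sum, KO left of WT, with the mean and SD of each genotype as bars. Gm3375 lies between 5.05 and 6.403 CPM in KO and at 0 in WT, Psmb5 has all KO points under all WT points, and the sums overlap.

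The share of the summed counts that fell on the copy was alike in all KO libraries. It was 42.6%, 48.4%, 51.3%, 53.8% and 43.2% in KO 1 to KO 5, with Wilson 95% intervals that together ran between 31.02% and 65.4% and all overlapped. Pooled, 166 of 347 counts, or 47.8%, were on the copy in KO (Wilson 95% interval 42.6% to 53.1%). In WT the pooled share was 0 of 242 counts, which allows a share of up to 1.24%, and 4.11% to 6.98% in single libraries. These limits cover counting error only. More RNA from the copy with less from the parent, and the same RNA divided differently between the 2 rows, cannot be told apart from counts, which hold no base calls at the 8 substitutions.

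The surroundings of both loci were read next, within 250 kb. Near Psmb5, 15 protein-coding genes were tested, 0 were called, 11 had a negative log2 fold change and their median was -0.25. The one with the smallest p, 4931414P19Rik, lies 8.13 kb away and stood at 6.30, 5.21, 3.78, 6.50 and 4.27 CPM in KO, against 10.7, 9.40, 9.80 and 13.4 CPM in WT. The 2 groups did not overlap, and its log2 fold change was -1.05 ± 0.22 (SE), with an unadjusted p of 0.000534 and an edgeR adjusted p of 0.242. Lrp10, at -0.46, had an unadjusted p of 0.0395, and Ajuba (-0.46) and Homez (-0.39) did not reach 0.05 unadjusted. Of the 13 called genes, 7 were on chromosome 14, between 54292443 and 70636048, and Psmb5 lies between the first and the last of them. These limits are set by the called genes themselves, and the share called among the genes tested between them was not computed. Of these 7, 5 rose in KO (Xkr6, Mtmr9, Phyhip, Gm15918 and Dmtn) and 2 fell (Gm43305 and Ppp1r3e). Ppp1r3e, at 54872669, fell by 2.00 on the log2 scale (edgeR adjusted p = 0.0248), and Xkr6, at 63606503, rose by 5.04 (edgeR adjusted p = 4.64e-06). Near Gm3375 only 3 protein-coding genes were tested and 0 were called, with Myadm at -0.41 and AU018091 at -0.30 among them. Gm3375 was the only called gene on chromosome 7.

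No subunit gene of the 31 was called in either direction by edgeR, and most of them had slightly negative values. The log2 fold change was negative for 25 and positive for 6, with a median of -0.11, against 50% negative and a median of -7.8e-05 over all genes. The count of negative subunits lay between 21 and 30 over the alternatives tried. At an unadjusted p under 0.05, 2 subunits were lower in KO and 0 higher, where 4.59% and 3.36% of all genes were, 7.95% in both directions. Every KO library lay below every WT library for the same 2, Psmb5 and Psma5, beside 1.26% of all genes. Leaving Psmb5 out, the 30 fold changes ran from -0.29 to 0.07 and all their 95% intervals lay between -0.59 and 0.37.

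**Figure D3:**
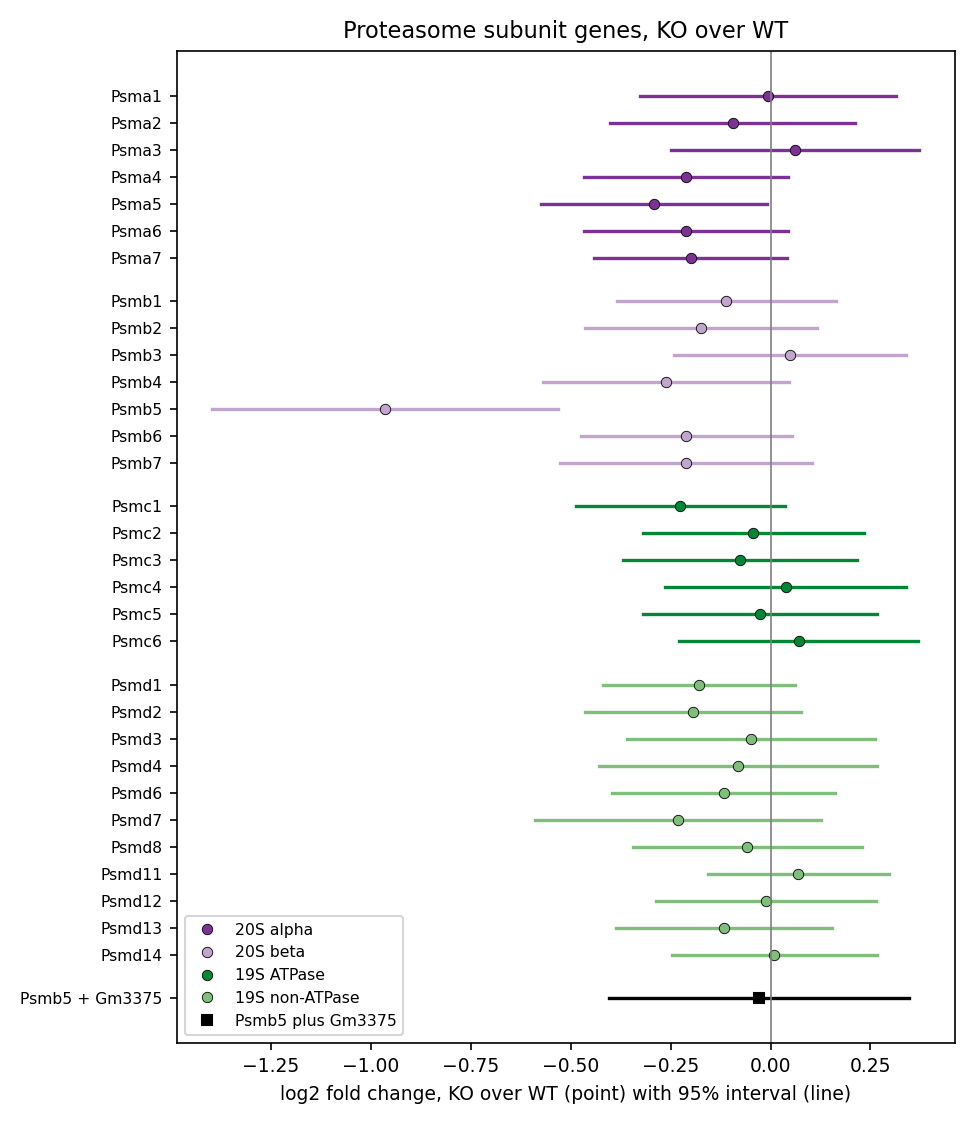
Log2 fold change, KO over WT, of the 31 subunit genes by subcomplex and of the sum of Psmb5 and Gm3375 (points), with 95% intervals (lines). Psmb5 at -0.96 stands apart from the other 30, which lie between -0.29 and 0.07, and its sum with the copy lies at -0.03.

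The alpha subunits of the core, whose tails form the gate, had a median of -0.20, with 6 of 7 negative. Psma5 stood at 20.9, 18.1, 24.5, 20.2 and 24.1 CPM in KO, against 26.8, 27.2, 26.6 and 25.1 CPM in WT. KO 3, the highest KO library, came close to WT 4, the lowest WT library, without reaching it. The log2 fold change of Psma5 was -0.29 ± 0.13 (SE; edgeR adjusted p = 0.616).

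A further 3 alpha subunit genes had similar sizes. Psma4 had 55.2, 49.9, 62.2, 55.4 and 55.9 CPM in KO and 67.9, 68.3, 67.8 and 53.7 CPM in WT, a log2 fold change of -0.21 ± 0.12 (SE). Psma6 had 42.1, 35.7, 46.1, 45.3 and 45.8 CPM in KO and 54.7, 51.0, 47.7 and 45.9 CPM in WT, a log2 fold change of -0.21 ± 0.12 (SE). Psma7 had 70.9, 69.1, 72.2, 78.0 and 86.0 CPM in KO and 96.1, 81.3, 85.4 and 83.0 CPM in WT, a log2 fold change of -0.20 ± 0.11 (SE). In each of them the groups overlapped, and the edgeR adjusted p lay between 0.661 and 0.662. Psma1 (-0.01), Psma2 (-0.09) and Psma3 (0.06) were closest to 0 in this ring.

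The beta subunits had a median of -0.21, with 6 of 7 negative, Psmb5 included. Psmb4, a structural beta subunit, had 44.9, 37.6, 42.8, 47.1 and 60.5 CPM in KO and 54.9, 60.4, 56.3 and 51.9 CPM in WT, which is -0.26 ± 0.14 as a log2 fold change (SE; adjusted p by edgeR = 0.659). KO 5 was the highest of all 9 libraries for it, so the groups overlapped. Psmb6, which carries the caspase-like site, had 57.9, 51.5, 52.2, 44.8 and 60.2 CPM in KO and 66.0, 65.8, 59.8 and 55.1 CPM in WT, which is -0.21 ± 0.12 on the log2 scale (SE; adjusted p by edgeR = 0.672). Psmb7, which carries the trypsin-like site, was at 45.2 ± 7.63 CPM in KO (SD, n = 5) and 52.3 ± 5.14 CPM in WT (SD, n = 4), with a log2 fold change of -0.21 ± 0.14 (SE). So Psmb5 stood at -0.96 and the genes of the other two catalytic subunits at -0.21 each, while Psmb5 with its copy stood at -0.03. Psmb1 (-0.11), Psmb2 (-0.17) and Psmb3 (0.05) completed the ring.

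In the 19S cap the ATPase genes had a median of -0.03, with 4 of 6 negative. Psmc1 had 49.0, 55.6, 55.3, 58.1 and 64.0 CPM in KO and 59.5, 74.6, 69.5 and 60.2 CPM in WT, and its fitted change was -0.23 ± 0.12 on the log2 scale (SE; adjusted p by edgeR = 0.650). KO 5 lay within the range of WT, the other KO libraries below it. The remaining ATPase genes, Psmc2 to Psmc6, ran from -0.08 for Psmc3 to 0.07 for Psmc6. The 11 non-ATPase genes had a median of -0.08, with 9 negative. Among them were Psmd2 (-0.19), a scaffold of the cap, Psmd7 (-0.23), the partner of Psmd14, Psmd4 (-0.08), a ubiquitin receptor, and Psmd14 (0.01), the enzyme that removes ubiquitin chains from substrates. The edgeR adjusted p of the 17 cap genes lay between 0.650 and 0.987.

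Core and cap differed a little in where they lay, with a median of -0.21 for the 14 core genes and -0.06 for the 17 cap genes. Taking the mean log2 CPM of the cap genes minus that of the core genes in each library gave 0.66, 0.85, 0.54, 0.82 and 0.66 in KO and 0.43, 0.60, 0.57 and 0.68 in WT. The ranges overlapped, at 0.70 ± 0.13 in KO (SD, n = 5) and 0.57 ± 0.10 in WT (SD, n = 4). The core mean includes Psmb5, whose log2 fold change was -0.96, and the part of Psmb5 in this difference was not tested. The mean log2 CPM over all 31 genes was 5.65, 5.57, 5.71, 5.64 and 5.83 in KO (5.68 ± 0.10, SD, n = 5) and 5.78, 5.91, 5.86 and 5.70 in WT (5.81 ± 0.10, SD, n = 4). KO 5 stood above WT 1 and WT 4, so the groups overlapped here too.

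Single libraries were at the extreme for several subunit genes at once. WT 2 was the highest library for 12 of the 31 genes, KO 2 the lowest for 9 and KO 4 the lowest for 8. KO 3 was mixed, being highest for 7, among them Psma1, Psma3, Psmb3 and Psmc6, and lowest for 5, namely Psmc5, Psmd2, Psmd3, Psmd4 and Psmd7. That library also had the highest share of fragments without an annotated feature, at 50.4%, and the part of this in the subunit values was not tested. Over the 9 libraries the SD of log2 CPM ran from 0.10 for Psmd11 to 0.27 for Psmd7 in all genes except Psmb5, where it was 0.56.

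**Figure D4:**
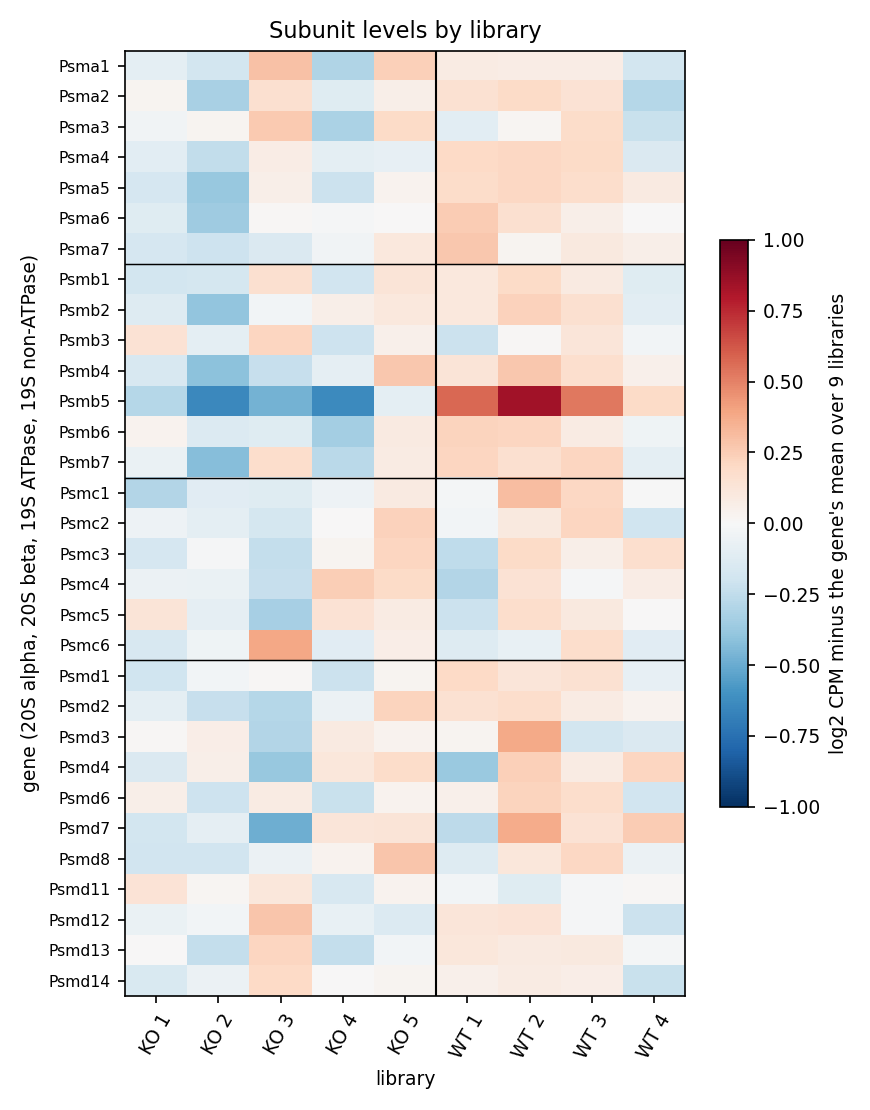
Log2 CPM of each subunit gene minus its mean over the 9 libraries, with KO libraries left of WT libraries and genes ordered by subcomplex (colour scale from -1 to 1). Psmb5 is the row with the strongest contrast between the genotypes, and KO 3 is high for Psmc6 and low for Psmd7.

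Levels of different genes were compared per kilobase of a single annotated transcript per gene, so the order depends on the transcript taken. It had 2846 bases for Psma3 and 2911 for Psma2, against 899 for Psmb5. Before scaling by length, Psma3 had 46.4 CPM in KO and 44.4 in WT, above Psmb3 at 27.3 in KO and 26.3 in WT. Psma7 had the highest level, at 82.3 CPM per kilobase in KO and 94.6 in WT, followed by Psmb6 at 66.8 in KO and 77.3 in WT. Psmb5 had the lowest of the 31, at 7.04 CPM per kilobase in KO and 13.7 in WT, although its product is a catalytic subunit of the same core. With the counts of Gm3375 added, it stood at 13.5 CPM per kilobase in KO and 13.7 in WT, still under Psma3, the next lowest, at 16.3 in KO and 15.6 in WT. Psma3, Psma2 and Psmd13 stood at 16.0 ± 2.12, 16.9 ± 2.20 and 18.8 ± 1.96 CPM per kilobase over all libraries (SD, n = 9). Each SD is for a single gene across libraries of both genotypes, and the genes were not compared within libraries.

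Of the 850 windows of Psmb5, 485 occur in another annotated gene, or 57.1%, the highest share of the 31. This count includes 60 windows in Mir686, which lies at its own locus, and the first place depends on them. Psmb3, at 55.8%, and Psma5, at 55.4%, came next, and 16 of the 31 subunit genes had at least 1 such window. Psmb3 had 35.6 CPM per kilobase in KO and 34.4 in WT, and Psma5 had 17.4 in KO and 21.3 in WT, so these shares went with levels from the lowest of the 31 up to that of Psmb3. The part of uncounted fragments in the level of Psmb5 was not tested.

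**Figure D5:**
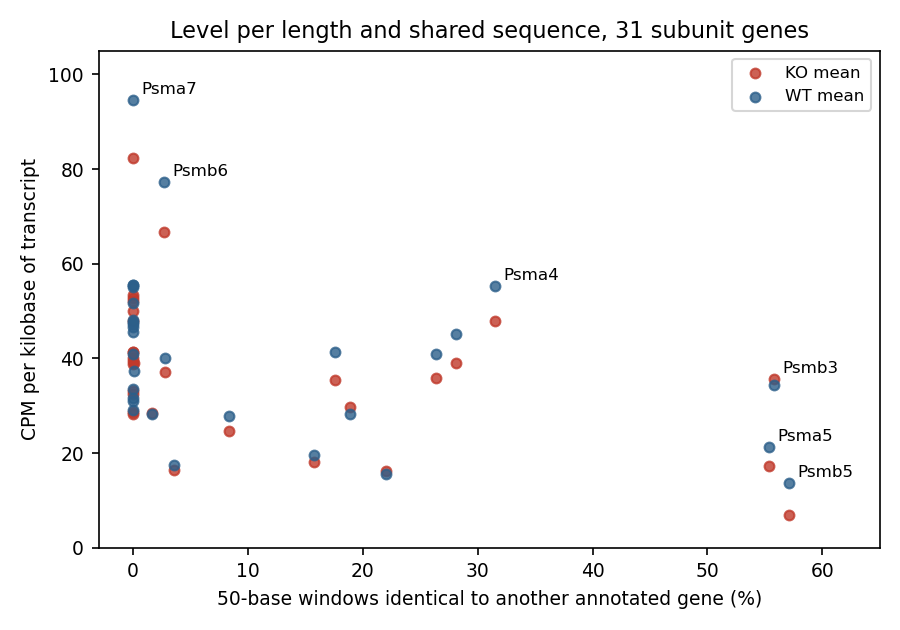
Mean CPM per kilobase of transcript in KO and WT (points) of the 31 subunit genes, against the share of their 50-base windows that occur unchanged in another annotated gene. Psmb5, at 57.1% of windows with those in Mir686 included, has 7.04 CPM per kilobase in KO and 13.7 in WT. Psmb3, at 55.8%, has 35.6 in KO and 34.4 in WT.

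Gm3375 was then set beside the other processed copies of subunit genes. A search of 10232 annotated processed pseudogenes found 35 copies of 17 of the 31 genes. Of these, 15 had 0 counts in all 9 libraries, 13 had 1 to 9 counts in total and 7 had at least 10. Gm3375 was the only copy with at least 10 counts that had them in 1 genotype alone. Its 166 counts were all in KO, so it passed this cut through KO alone. Copies under the cut also included some with counts in 1 genotype only. Gm6474 had 2 in KO and 0 in WT, and Gm4742 had 0 in KO and 1 in WT, while Gm5422 had 2 in each. Psmb5-ps, another copy of Psmb5 with 92.0% identity, had 0 counts in every library.

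The Psma4 copy Gm6542 was the other one that passed the filter on low counts. It had 36, 61, 50, 56 and 44 counts in KO and 24, 33, 46 and 22 in WT, a fitted change of 0.45 ± 0.21 on the log2 scale (SE; adjusted p by edgeR = 0.634). Its levels ran from 7.09 to 10.1 CPM in KO and from 4.92 to 7.64 CPM in WT, so the groups overlapped. The remaining 5 were too low to test: the Psma3 copy Gm13835 had 39 counts in KO and 35 in WT, the Psmb1 copy Gm14830 had 21 in KO and 13 in WT, the Psmd11 copy Gm14048 had 19 in KO and 6 in WT, the Psma2 copy Gm4118 had 5 in KO and 10 in WT and the Psma5 copy Gm12989 had 6 in KO and 8 in WT. With each subunit gene summed with its copies, 0 of the 31 were called, 25 were negative and the median was -0.10.

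Genes that work with the proteasome were read from the same fit, and none was called in any of the lists below. The remaining cap subunits were the ubiquitin receptor Adrm1, at a log2 fold change of 0.03, and Sem1, at -0.11. Of the immunoproteasome subunits, which replace the catalytic beta subunits in immune cells and under interferon, Psmb8 takes the place of Psmb5. Psmb8 had 51.0, 53.3, 47.3, 56.7 and 81.6 CPM in KO and 41.9, 79.4, 51.0 and 68.0 CPM in WT, a fitted change of -0.05 ± 0.21 on the log2 scale (SE; adjusted p by edgeR = 0.962). The groups overlapped widely. Psmb9 was at 0.22 ± 0.22 and Psmb10 at -0.18 ± 0.18 (SE), while the thymic Psmb11 and the testis subunit Psma8 had at most 0.361 CPM in any library and were not tested. The 13 tested genes of an interferon list had a median of 0.04, and the list's summed level was 793.4 to 1269 CPM in KO and 704.5 to 1276 CPM in WT.

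The activators and the inhibitor of the core had a median of -0.08, with 3 of 5 negative, for example Psme3 (-0.08), Psme2 (-0.10) and Psme4 (0.15). The assembly chaperones were all negative, 8 of 8 tested, with a median of -0.11. Among them Pomp, which matures the beta ring, had 48.5, 41.4, 49.1, 40.1 and 50.4 CPM in KO and 52.3, 62.5, 57.0 and 50.4 CPM in WT. KO 5 and WT 4 met at the same rounded level, and the log2 fold change was -0.28 ± 0.12 (SE; unadjusted p = 0.0403, edgeR adjusted p = 0.616). Psmd10 and Psmd5, chaperones of the cap, were at -0.34 and -0.10.

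The NRF1 axis, which controls subunit transcription, had a median of -0.16 with 7 of 9 negative. Nfe2l1, the gene of NRF1, had 352.6, 360.4, 414.3, 389.4 and 367.3 CPM in KO and 561, 412, 416.4 and 453.5 CPM in WT. KO 3 lay between WT 2 and WT 3, the other KO libraries below all WT libraries. The log2 fold change was -0.29 ± 0.13 (SE; unadjusted p = 0.0438, edgeR adjusted p = 0.616), and -0.18 to -0.34 with single libraries left out. Vcp, the p97 ATPase that extracts NRF1 from the endoplasmic reticulum, was at -0.23 ± 0.11, and Nfe2l3, a relative of NRF1, at -0.52 ± 0.25 (SE).

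Ubiquitin factors that bind the proteasome had a median of -0.09 and were all negative, 10 of 10, led by Ubqln2 (-0.23), Rad23b (-0.19) and Ubqln1 (-0.18), which shuttle ubiquitylated proteins. Cofactors of p97 had a median of -0.07, with Ubxn7 at -0.11, Faf1 at -0.10 and Nploc4 at 0.08. The ubiquitin genes and E1 enzymes had a median of -0.09, with Ubb at -0.18, Uba1 at -0.13 and Uba6 at 0.16. The genes that link HSP70 to the proteasome had a median of -0.02, with Dnajb2 at -0.26, Bag1 at -0.15, Bag6 at 0.14 and Stub1, which encodes CHIP, at -0.02. Their edgeR adjusted p values all lay between 0.668 and 0.999.

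In bulk libraries, fewer cells of a type and less RNA per cell cannot be told apart, and most markers of the cell types present had negative values too. All 8 epithelial markers were negative, with a median of -0.50 and a summed level of 3117 to 3799 CPM in KO and 3139 to 6794 CPM in WT. Of the fibroblast markers 8 of 9 were negative, with a summed level of 202.6 to 423.3 CPM in KO and 541.3 to 746.9 CPM in WT. Most of this sum was Col1a1 (106.3 to 238.8 CPM in KO, 243.5 to 464.6 in WT) and Col1a2 (55.1 to 134.1 in KO, 150.5 to 235 in WT). Only these 2 of the 9 had every KO library below every WT library, beside 1.26% of all genes. All 8 endothelial markers were negative, at 25.5 to 65.8 CPM in KO and 48.5 to 152.1 CPM in WT, and all 12 macrophage markers were, at 260.1 to 664.1 CPM in KO and 499 to 802.4 CPM in WT. Of these 12, Cd14 alone had every KO library below every WT library (62.25 to 107.4 CPM in KO, 124.4 to 240.3 in WT). Of 11 T and NK cell markers 3 were tested. The sum of all 11 was 3.94 to 37.4 CPM in KO and 10.8 to 21.5 CPM in WT. Cd3d, Cd8b1, Nkg7 and Prf1 were at 0 in KO 3. Prf1 was also at 0 in KO 4, WT 1 and WT 4, Trac in KO 2 and Klrb1c in WT 4. None of the cell type markers was called, and their part in the small negative values of the subunit genes was not tested.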

How the data were processed

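The 5 KO and 4 WT tumor libraries come from stranded, ribosome-depleted RNA sequencing with 50 cycles from each end, per the labels' protocols. The submitters' processing notes name STAR 2.5.4a, Trimmomatic 0.36, FastQC 0.11.5 and the build GRCm38. The deposited values are raw counts of fragments on each gene, laid out as STAR writes them. The annotation release and the strand setting, not given in the sources used here, can change counts where genes overlap. Rows that name no gene were left out of library sizes: unmapped (11.0% to 27.1% of fragments), multimapped (5.50% to 9.53%), no feature (34.0% to 50.4%) and ambiguous (0.971% to 1.23%). Of 55401 identifiers, 55141 matched a symbol in GENCODE M21, which also gave positions and transcripts.

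KO was compared with WT by the quasi-likelihood test (glmQLFTest) of edgeR 4.0.16 under R 4.3.3, with TMM factors, filterByExpr and a genotype term alone; Benjamini-Hochberg adjustment ran over 14665 genes and calls were made at 0.05. The SE is the log2 fold change divided by the root of F, and intervals are 95%. Floors are 3 counts and, like Wilson intervals, cover counting error only. Copies were found by BLAST of processed pseudogenes against coding transcripts (at least 80% identity over 150 bases). Libraries of a genotype differed by more than sampling noise (chi-square per gene 6.34 to 56.4). Alternatives were DESeq2 1.42.0, limma-voom (limma 3.58.1), other scaling and filters, a replicate block, age and left-out libraries.

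The members, gene lists and alternatives were chosen with earlier results of these data known. Of the subunit genes, the 8 with the smallest unadjusted p are given per library, and of each related list the 3 smallest are named; other genes that are named were chosen after their values were seen. Paaf1 was not analysed here. The value of 1 neighbouring gene is not reported here.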

Additional observations from a re-analysis of the deposited data

Results flagged for a closer look

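Within each genotype, the highest and the lowest library were checked. Either was set apart when its gap to the nearest other library, divided by the group's range, exceeded Dixon's 95% critical value. Of 117 gene and genotype groups checked, 14 met this, where chance gives about 1 in 20. Among the subunit genes WT 4 was set apart as the lowest WT library 5 times. It stood at 50.36 CPM for Psma1, with the other WT libraries at 60.32 to 60.47 CPM, and at 40.06 CPM for Psma2, with the others at 54.17 to 55.81 CPM. For Psma4 it stood at 53.72 CPM, for Psmd13 at 36.71 CPM and for Psmd14 at 37.38 CPM. WT 4 also had the highest unmapped share, 27.1%, whose part in this was not tested. WT 3 was high for Psmc6, at 96.05 CPM, with the others at 77.68 to 80.68 CPM.

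KO 3 was low for Psmd3, at 88.17 CPM with the other KO libraries at 109.3 to 115.4 CPM, and high for Psmd12, at 76.51 CPM with the others at 57.45 to 61.92 CPM. It was also high for Psme4, at 418.9 CPM, and for Uba6, at 67.48 CPM. KO 5 was high for Psmb8, at 81.56 CPM, and for Ubqln2, at 43.26 CPM. WT 1 was low for Psme2, at 38.14 CPM, and high for Uba6, at 51.87 CPM. Neither Psmb5, Gm3375 nor their sum had a library set apart in this way, but Gm3375 in WT, at 0 throughout, was not checked.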

How the results depend on the processing

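Low counts limit Psmb5 and Gm3375: both fell below a filter on a mean count of 50 and were then not tested. Gm3375 was called in each alternative that tested it as a gene of its own, except the replicate block, where its log2 fold change was 7.96 and its adjusted p 0.0775. With single libraries left out it ran from 7.90 to 8.01, with adjusted p of 0.00126 to 0.00596. Psmb5 was called by DESeq2 alone (-0.97), and ran from -1.07 to -0.86 with single libraries left out. Of the 32 genes, 2 were called by DESeq2, 0 at a mean count of 50, 0 with the replicate block and 0 with each subunit gene summed with its copies. Over all genes, DESeq2 called 68, no count filter 29, a mean count of 50 gave 6, and leaving out single libraries 6 to 13, against 13; the cause was not tested. The lowest count came without KO 1, KO 4 or KO 5, and 7, 7 and 8 were called without KO 2, WT 2 and WT 3.

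The sum of Psmb5 and Gm3375 turned to 0.046 with age as a covariate and ran from -0.136 to 0.079 with single libraries left out, turning positive without KO 2 and without WT 2. The median of the 31 subunits stayed negative, between -0.18 and -0.07. Small values that changed sign were those of Adrm1 (-0.041 with the replicate block, -0.13 without WT 1 and WT 4, which earlier results gave as the libraries with the highest casein counts, -0.10 to 0.12 with single libraries left out), Psmb8 (0.14 with age, -0.21 to 0.11), Psme4 (-0.078 with age, -0.036 to 0.30) and Uba6 (-0.048 with age, -0.041 to 0.30). The labels tie no library number to a shared animal, litter or day. Deviations of same-numbered libraries correlated at -0.02, 0.38, 0.11 and 0.38, and 2 of 4 numbers correlated best with their own, so the block was kept as an alternative. With the replicate block 10 genes were called.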
